A study of Homo sapiens with 17 samples.

Results

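The response of control SW480 cells to tumor necrosis factor α (TNF-α) was measured at the mRNA level in 2 of the 17 samples of a study of mutant p53 (mutp53) in colon cancer. SW480 cells come from a human colon cancer and carry mutp53. The control cells (shLacZ) held a stably integrated, doxycycline-inducible hairpin against LacZ, a bacterial gene, and so kept mutp53. They were harvested without TNF-α (0 h) or at 16 h of treatment with 12.5 ng/ml, with 2 biological replicates, A and B, per time. The other line (shp53, mutp53-depleted) carried an inducible hairpin against p53 and was treated in the same way. Its 4 libraries entered the same statistical model. Puromycin selection and doxycycline were common to all 4 groups, so the 0 h cells expressed a hairpin too. Whether each line was a pool or 1 clone, and what the 0 h cells received in place of TNF-α, is not given in the sources used here. The comparison covered 14800 of the 26457 listed genes, those whose mean over the 8 mRNA-seq libraries was 2.5 normalized reads or more.

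TNF-α is an inflammatory cytokine. It binds TNF receptors on the cell surface, which recruit adaptor proteins and switch on the IκB kinases. These release the transcription factor NF-κB from its IκB inhibitors, and NF-κB then raises the transcription of cytokines, adhesion molecules, survival factors and its own inhibitors. SREBP factors drive the enzymes of cholesterol synthesis when sterols are scarce. The Wnt pathway, which most colon cancers activate by mutation, maintains the stem cells of the intestinal crypt.

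NF-κB binds a 10-base consensus, the κB consensus, which was searched for in the 250 bases before each gene start, on both strands. The 6 windows below belong to the induced genes with the largest fold changes among those that held a match. They show where the match lay in these genes. Induced genes of similar or larger fold change without a match or a promoter sequence, CCL2 and C3 among them, were passed over. Each is read 5′ to 3′ on the strand of its gene, and the capitals mark the match, also where it was found on the opposite strand. Sequences and coordinates are those of RefSeq on GRCh38.p14.
LTB promoter, chr6:31582492-31582521, minus strand: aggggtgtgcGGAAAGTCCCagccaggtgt
UBD promoter, chr6:29559766-29559795, minus strand: aatccaggcaGGGGATTTCCaactcaactc
IL32 promoter, chr16:3065295-3065324, plus strand: ctgtactcagGGAGTTTCCCcagccagctg
TNFRSF9 promoter, chr1:7940893-7940922, minus strand: agctgtggtgGGAATTTCCCatgagacccc
BIRC3 promoter, chr11:102317339-102317368, plus strand: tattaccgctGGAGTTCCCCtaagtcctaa
TNFAIP3 promoter, chr6:137867194-137867223, plus strand: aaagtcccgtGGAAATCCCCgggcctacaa
The consensus matched 73 of the 330 induced genes with a promoter in the table (22.1%). It matched 66 of 455 lowered genes (14.5%) and 1227 of 10744 genes that were not called (11.4%). Over all 27303 promoters of the table the share was 9.57%. A match is a run of letters, and binding was not measured in these libraries.

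Between 6108488 and 12751404 reads per control library fell on genes. All values are normalized reads, that is, whole reads times a single factor for each library that brings every library to the same total. One read was worth between 0.726 and 1.51 normalized reads. Across genes the replicates of a group correlated with r between 0.986 and 0.990 on the log2 scale, but they differed by more than sampling noise, the chi-square being 2.02 to 3.73 for each gene. Of 12 colon epithelial markers, CDX1, CDH17 and CEACAM5 were at 0 reads in all 4 control libraries, and the summed level of the list was 70710 and 66178 at 0 h and 56297 and 56382 at 16 h. Of 16 leukocyte markers 7 were at 0 reads, PTPRC and CD3D among them. Their summed level went from 1774 and 1801 to 561 and 555, and most of it was NCAM1. The 10 fibroblast and 8 endothelial markers summed to between 16.4 and 39.9 normalized reads, with COL3A1, DCN, KDR and TEK at 0 reads. The part of these markers in the results was not tested. In RNA from whole cultures, fewer cells of a type and less RNA per cell cannot be told apart.

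TNF-α changed 1072 genes (7.24% of those tested) in control cells. It induced 440 genes (2.97%) and lowered 632 genes (4.27%). The counts of called genes in each list below are to be read beside these shares. Genes with few or no reads at 0 h could enter the test through their 16 h reads, whereas silent genes were left out. In lists of weakly expressed genes this favours a high share of induced members. A call required an adjusted p under 0.05, from limma with the Benjamini-Hochberg method, and at least a 2-fold change. Fold changes are on the log2(normalized reads + 1) scale, which understates those of weakly expressed genes, and SE is their standard error. The adjusted p alone was passed by 1648 genes that were higher (11.1%) and 2243 that were lower (15.2%), and the median over all tested genes was −0.05. DESeq2 on the recovered reads called 405 induced and 400 lowered genes, so that the excess of lowered genes was absent there. The median log2 fold change was 1.80 among induced genes and −1.51 among lowered genes. With genes at 0 reads in one group set to their bound, these medians became 1.69 and −1.47. On the log2(normalized reads + 1) scale a change of 16-fold or more was reached by 43 induced and 5 lowered genes. Genes at 0 reads in one group are among them, and their bound can be smaller, as for ATP12A (at least 5.81-fold lower).

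**Figure D1:**
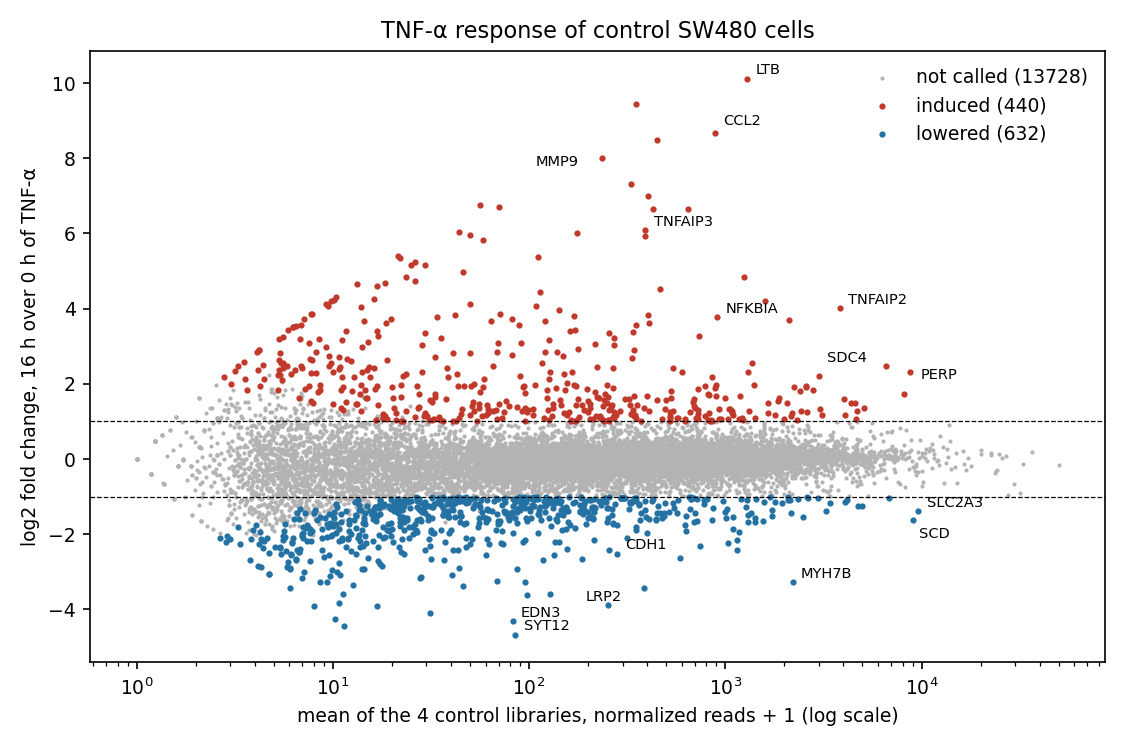
Log2 fold change (16 h over 0 h, vertical axis) of the 14800 tested genes against their mean over the 4 control libraries (normalized reads + 1, log scale). The 440 induced genes lie above 1 and reach 10.12, whereas the 632 lowered genes lie below −1 and reach −4.67.

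Induced and lowered genes started from different levels. At 0 h the median induced gene had 29.7 normalized reads, and 155 of 440 (35.2%) had fewer than 10. The median lowered gene had 64.6 normalized reads, and 52 of 632 (8.23%) had fewer than 10. Among all tested genes the median was 247 and the share under 10 was 11.2%. The calling rule favours this difference between the directions. A gene with few reads at 0 h can enter through its 16 h reads but can hardly be called lowered. At 0 h 79 induced and 0 lowered genes had 3 reads or fewer in both libraries. Median exon lengths were alike, with 2923 bases for induced, 3002 for lowered and 2886 for all tested genes. Together the induced genes went from 0.993% and 1.00% of the normalized reads at 0 h to 3.40% and 3.10% at 16 h. The lowered genes went from 2.62% and 2.71% to 1.03% in each 16 h library. Both 16 h libraries lay above both 0 h libraries for 438 of the induced genes, and below them for 631 of the lowered genes. The calls nearly require this separation, which was seen upward in 24.8% and downward in 34.7% of all tested genes.

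Of 17 listed ligand genes of the TNF family 10 were tested, of which 5 were induced and 0 lowered, with a median of 0.65. LTB, which encodes lymphotoxin-β, had 4.35 and 0 normalized reads at 0 h and 2791 and 2374 at 16 h (log2 fold change 10.12, SE 0.52, adjusted p = 6.0e-11). TNF itself had 0.73 and 0 normalized reads at 0 h and 152 and 124 at 16 h (286-fold higher at 16 h by pooled reads, counting interval 50.9 to 11351, adjusted p = 1.9e-09). LTA, the gene of lymphotoxin-α, had 0.73 and 0 normalized reads at 0 h and 46.4 and 22.8 at 16 h. All 3 genes passed from nearly no reads to clear expression in both 16 h libraries. CD70, a ligand of activated lymphocytes, was already expressed and rose from 55.9 and 62.1 to 216 and 154 normalized reads (log2 fold change 1.61, SE 0.24, adjusted p = 5.8e-05). Where a group held 3 reads or fewer in each library, but not 0 in both, the ratio of pooled reads is given with its 95% counting interval, which covers counting error only. A gene at 0 reads in both libraries of a group is given a bound against 3 reads in each library.

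Neither of the receptors that bind TNF-α was called. TNFRSF1A, the receptor that most cells use, had 1278 and 1244 normalized reads at 0 h and 1398 and 1111 at 16 h (log2 fold change −0.02, adjusted p = 0.92). TNFRSF1B had 4314 and 4343 normalized reads at 0 h and 5453 and 4257 at 16 h (log2 fold change 0.15, adjusted p = 0.27). Other receptors of the family moved in both directions, with 4 of 20 induced and 2 lowered. TNFRSF9, the costimulatory receptor 4-1BB, had 2.90 and 16.7 normalized reads at 0 h and 939 and 751 at 16 h (log2 fold change 6.66, SE 0.45, adjusted p = 2.3e-09). TNFRSF6B, a decoy receptor that binds FAS ligand, rose from 152 and 179 to 3074 and 2993 normalized reads (log2 fold change 4.19, SE 0.12, adjusted p = 2.6e-14), although a readthrough transcript of RTEL1 shares its reads. The lowered members were TNFRSF19, a target of Wnt signaling, and EDAR, the ectodysplasin receptor. EDAR fell from 1928 and 1935 to 894 and 953 normalized reads (log2 fold change −1.06, SE 0.14, adjusted p = 1.0e-05).

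Downstream of the receptors, 9 of 26 adaptors and feedback inhibitors were induced and 0 lowered (median 0.69). BIRC3, an inhibitor of cell death that ubiquitinates the receptor complex, had 7.98 and 16.7 normalized reads at 0 h and 1371 and 1169 at 16 h (log2 fold change 6.65, SE 0.20, adjusted p = 3.2e-14). TNFAIP3, the deubiquitinase A20 that shuts the pathway off, had 8.71 and 12.1 normalized reads at 0 h and 793 and 747 at 16 h (log2 fold change 6.09, SE 0.29, adjusted p = 2.0e-11). TNFAIP2, a target gene of NF-κB, had 441 and 445 normalized reads at 0 h and 7946 and 6458 at 16 h (log2 fold change 4.01, SE 0.08, adjusted p = 3.5e-16). In all of these the 0 h and 16 h libraries were far apart. The adaptor TRAF1 had a log2 fold change of 3.82, the A20-binding protein TNIP1 of 1.91 and the ubiquitin-binding scaffold SQSTM1 of 1.74.

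Of the 15 NF-κB and IκB genes 9 were induced, 0 were lowered and the median was 1.23. NFKBIA, which encodes the inhibitor IκBα, had 131 and 114 normalized reads at 0 h and 1808 and 1568 at 16 h (log2 fold change 3.78, SE 0.10, adjusted p = 2.6e-14). The precursor subunit NFKB2 had 388 and 403 normalized reads at 0 h and 2382 and 2276 at 16 h (log2 fold change 2.55, SE 0.08, adjusted p = 3.2e-14). RELB, its partner, had a log2 fold change of 3.28. RELA, the subunit that carries the canonical response, was higher by 0.49 on the log2 scale (adjusted p = 6.3e-05) and did not reach the fold threshold. Of the 12 genes of this list with a promoter in the table, NFKB1, NFKBIA, NFKBIZ and REL held the κB consensus before their start (33.3%). NFKBIZ lost its call without the 0 h A library (log2 fold change 0.99).

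Chemokines attract leukocytes, and 5 of 7 tested CC chemokines and 6 of 8 tested CXC and CX3C chemokines were induced. The lists held 18 and 17 genes, of which 9 and 6 had 0 reads in all control libraries. Members such as CCL7, with 0 reads at 0 h, were tested only through their 16 h reads, which favours these shares. The induced members had at most 9.09 normalized reads in any 0 h library. CXCL16, which was not called, held most of the 0 h reads of the CXC and CX3C list, with 536 and 462 normalized reads at 0 h and 449.5 and 353 at 16 h (adjusted p = 0.055). The median of the CC list was 3.72, or 1.86 with the 4 members that had 0 reads in one group set to their bound. CCL2, which attracts monocytes, had 3.63 and 3.03 normalized reads at 0 h and 1968 and 1561 at 16 h (log2 fold change 8.67, SE 0.29, adjusted p = 2.5e-13). Its neighbour CCL7 had 0 and 0 normalized reads at 0 h and 139 and 82.5 at 16 h (at least 33.0-fold higher at 16 h, adjusted p = 1.3e-07). CXCL8, the neutrophil attractant IL-8, had 0.73 and 0 normalized reads at 0 h and 63.8 and 37 at 16 h (108-fold higher at 16 h by pooled reads, counting interval 18.9 to 4308, adjusted p = 3.3e-06). The 16 h libraries lay apart from the 0 h libraries in each of them. One chemokine fell, CXCL14, which many epithelia express at rest, with 21.1 and 12.1 normalized reads at 0 h and 0.97 and 1.42 at 16 h (15.8-fold lower at 16 h by pooled reads, counting interval 4.07 to 135, adjusted p = 0.0023). CXCL14 lost its call without the 0 h A library (log2 fold change −2.59).

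Of 39 listed interleukins and colony-stimulating factors 18 were tested, of which 9 were induced and 1 was lowered. Of the list, 13 had 0 reads in all control libraries. IL32, an inflammatory cytokine of epithelia and lymphocytes, had 1.45 and 1.51 normalized reads at 0 h and 937 and 854 at 16 h (614-fold higher at 16 h by pooled reads, counting interval 209.6 to 2978, adjusted p = 2.6e-14). CSF2, the growth factor GM-CSF, had 2.90 and 6.06 normalized reads at 0 h and 426 and 265 at 16 h (log2 fold change 6.0, SE 0.28, adjusted p = 2.0e-11). IL23A, a subunit of interleukin-23, had 64.6 and 43.9 normalized reads at 0 h and 735 and 555 at 16 h (log2 fold change 3.56, SE 0.19, adjusted p = 1.1e-10). These genes rose in both replicates, whereas the lowered member, the T-cell attractant IL16, had 197 and 214 normalized reads at 0 h and 56.1 and 79.7 at 16 h (log2 fold change −1.60, SE 0.24, adjusted p = 4.8e-05).

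Genes of class I antigen presentation rose less and from higher levels. All 17 tested genes of HLA class I and peptide loading were higher at 16 h (median 0.70), beside 44.0% of all tested genes, and 4 passed both thresholds. TAPBP, which loads peptides onto class I molecules, had 2263 and 2297 normalized reads at 0 h and 7012 and 5881 at 16 h (log2 fold change 1.49, SE 0.08, adjusted p = 1.1e-10). HLA-B, whose reads can be shared with its close relatives, had a log2 fold change of 1.55. UBD, a ubiquitin-like protein also called FAT10, stood apart with 0 and 0 normalized reads at 0 h and 744 and 647 at 16 h (at least 207-fold higher at 16 h, adjusted p = 1.1e-11). Cathepsin S (CTSS), a protease that trims the class II invariant chain, had 1.45 and 6.06 normalized reads at 0 h and 684 and 630.2 at 16 h (log2 fold change 7.31, SE 0.34, adjusted p = 1.4e-11). CD74, the invariant chain itself, had 58.1 and 57.6 normalized reads at 0 h and 519 and 448 at 16 h (log2 fold change 3.04, SE 0.21, adjusted p = 3.7e-09). The class II molecules did not reach such levels where they fell below the filter. HLA-DRA had 0 and 0 normalized reads at 0 h and 3.87 and 4.27 at 16 h, and HLA-DQA1 had 0 reads. Of 12 listed genes of HLA class II and CIITA 6 were tested, of which 2 were induced, CD74 among them, and 0 lowered.

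Genes known as interferon targets did not move as a block. Of 41 tested, 8 were induced and 4 lowered (median 0.28). The viral RNA sensor IFIH1 rose from 74.8 and 92.4 to 282 and 331 normalized reads (log2 fold change 1.87, SE 0.16, adjusted p = 6.8e-08). The apolipoprotein L gene APOL6 rose from 85.6 and 89.4 to 261 and 273 normalized reads (log2 fold change 1.60, SE 0.13, adjusted p = 2.6e-08). Against this direction, IFITM1, a membrane protein that blocks viral entry, fell from 329 and 319.7 to 141 and 134 normalized reads (log2 fold change −1.23, SE 0.10, adjusted p = 2.9e-08). IRF1, a transcription factor that both interferon and NF-κB induce, had a log2 fold change of 1.59.

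Genes of the urokinase system were also induced, and 1 metalloproteinase was. MMP9, a gelatinase that degrades basement membrane, had 2.18 and 0 normalized reads at 0 h and 568 and 369.9 at 16 h (332-fold higher at 16 h by pooled reads, counting interval 113 to 1611, adjusted p = 2.6e-10). No other of the 19 metalloproteinase and TIMP genes was induced, 2 were lowered (10.5%, beside 4.27% of all genes) and the median was −0.13. Downward, 7 passed the adjusted p (15.2% of all genes). The lowered members were MMP2 and MMP24, with log2 fold changes of −1.29 and −1.63. The urokinase gene PLAU had 52.2 and 60.6 normalized reads at 0 h and 781 and 454 at 16 h (log2 fold change 3.38, SE 0.18, adjusted p = 7.5e-11), and its receptor PLAUR had a log2 fold change of 1.57. Of 13 genes of the urokinase system and serpins 6 were induced and 0 lowered. MMP2 lost its call with a pseudocount of 5, the shLacZ libraries alone or DESeq2, and also without the 0 h A or 16 h B library (log2 fold change −1.46 to −0.90).

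Of 14 complement genes 2 were induced (14.3%, beside 2.97% of all genes) and 3 lowered (21.4%, beside 4.27%). Complement component C3 had 3.63 and 7.57 normalized reads at 0 h and 793 and 808 at 16 h (log2 fold change 6.99, SE 0.34, adjusted p = 2.2e-11). CD46, a membrane protein that protects cells from complement, fell from 6982 and 6952 to 3038 and 2871 normalized reads (log2 fold change −1.24, SE 0.09, adjusted p = 7.7e-09). CLU, the complement inhibitor clusterin, fell from 3029.9 and 2797 to 1503 and 1246 normalized reads (log2 fold change −1.09, SE 0.08, adjusted p = 9.5e-09). The third lowered gene was the component C1S, with 10.2 and 7.57 normalized reads at 0 h and 0.97 and 4.27 at 16 h (4.05-fold lower at 16 h by pooled reads, counting interval 1.35 to 16.4, adjusted p = 0.037). The serum amyloid gene SAA1 had 51.5 and 71.2 normalized reads at 0 h and 796 and 718 at 16 h (log2 fold change 3.62, SE 0.14, adjusted p = 1.1e-12), and SERPINA1, which encodes antitrypsin, had 1077 and 1039 normalized reads at 0 h and 5116 and 4762 at 16 h (log2 fold change 2.22, SE 0.12, adjusted p = 1.4e-10). CLU lost its call without the 16 h B library (log2 fold change −0.95). C1S lost its call with no filter, a pseudocount of 0.1, a pseudocount of 5, the shLacZ libraries alone, edgeR, DESeq2 or thinned libraries, and also without the 0 h A, 0 h B or 16 h A library (log2 fold change −2.04 to −0.89).

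On the cell surface, ICAM1, which binds leukocyte integrins, had 306 and 292 normalized reads at 0 h and 4410.2 and 3400.2 at 16 h (log2 fold change 3.69, SE 0.14, adjusted p = 1.4e-12). NCAM1, a neural adhesion molecule, went the other way with 1696 and 1732 normalized reads at 0 h and 469.8 and 467 at 16 h (log2 fold change −1.87, SE 0.14, adjusted p = 7.6e-09). PERP, a desmosome-associated membrane protein, had 2894 and 3013 normalized reads at 0 h and 14869 and 14275 at 16 h (log2 fold change 2.30, SE 0.13, adjusted p = 1.4e-10). SDC4, the proteoglycan syndecan-4, had 1993 and 1988 normalized reads at 0 h and 12917 and 9377 at 16 h (log2 fold change 2.47, SE 0.11, adjusted p = 6.4e-12).

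**Figure D2:**
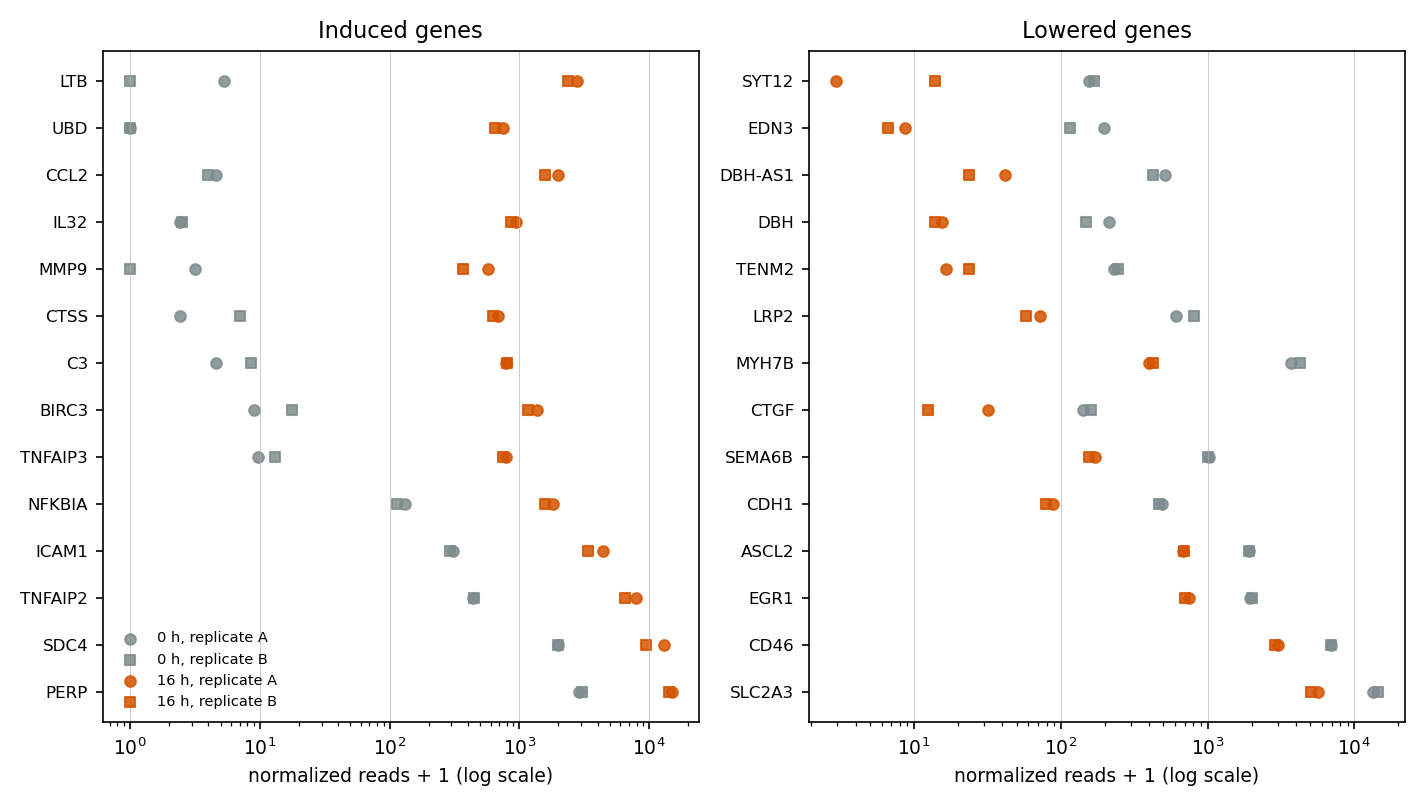
Normalized reads + 1 (log scale, horizontal axis) of 14 induced genes (left) and 14 lowered genes (right) in each control library, with circles for replicate A, squares for replicate B, gray for 0 h and orange for 16 h. In every gene shown, the 16 h points lie apart from the 0 h points, and the replicates lie close together except at low levels.

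Among the lowered genes whose 0 h mean was 20 normalized reads or more, the lowest log2 fold changes were those of SYT12, ATP12A, EDN3, CALHM1, CHN2, DBH-AS1 and DBH. SYT12, a member of the synaptotagmin family of vesicle proteins, had 155 and 167 normalized reads at 0 h and 1.93 and 12.8 at 16 h (log2 fold change −4.67, SE 0.47, adjusted p = 4.8e-07). EDN3, which encodes the peptide endothelin-3, had 197 and 115 normalized reads at 0 h and 7.73 and 5.69 at 16 h (log2 fold change −4.31, SE 0.56, adjusted p = 1.0e-05). CALHM1, a channel of taste cells and neurons, had 53.7 and 62.1 normalized reads at 0 h and 3.87 and 1.42 at 16 h (log2 fold change −4.10, SE 0.60, adjusted p = 4.1e-05). In each of these genes both 16 h libraries lay far below both 0 h libraries, although the 16 h replicates of SYT12 differed from each other. CHN2, which encodes the GTPase-activating protein β2-chimaerin, had 21.1 and 39.4 normalized reads at 0 h and 2.90 and 0 at 16 h (15.6-fold lower at 16 h by pooled reads, counting interval 5.08 to 78.1, adjusted p = 6.5e-04). DBH, the enzyme that makes noradrenaline from dopamine, had 212 and 148 normalized reads at 0 h and 14.5 and 12.8 at 16 h (log2 fold change −3.61, SE 0.49, adjusted p = 1.7e-05). DBH-AS1, its antisense RNA, had 515 and 423 normalized reads at 0 h and 40.6 and 22.8 at 16 h (log2 fold change −3.89, SE 0.49, adjusted p = 6.3e-06). The next gene on the chromosome, SARDH, was also lowered, so that 3 adjacent genes fell together.

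TENM2, a teneurin of neuronal surfaces, had 228 and 244 normalized reads at 0 h and 15.5 and 22.8 at 16 h (log2 fold change −3.58, SE 0.44, adjusted p = 5.4e-06). LRP2, the endocytic receptor megalin, had 605 and 809 normalized reads at 0 h and 71.5 and 56.9 at 16 h (log2 fold change −3.43, SE 0.26, adjusted p = 1.1e-08). ATP12A, a proton pump of the colon and other epithelia, had 17.4 and 24.2 normalized reads at 0 h and 0 and 0 at 16 h (at least 5.81-fold lower at 16 h, adjusted p = 2.4e-05). KLK7, a kallikrein protease of the epidermis, had 79.1 and 87.9 normalized reads at 0 h and 5.80 and 8.54 at 16 h (log2 fold change −3.39, SE 0.43, adjusted p = 8.2e-06).

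Several abundant genes lost many normalized reads. MYH7B, a myosin heavy chain, had 3689.6 and 4293 normalized reads at 0 h and 400.2 and 423 at 16 h (log2 fold change −3.27, SE 0.15, adjusted p = 1.0e-11). SLC2A3, the glucose transporter GLUT3, had 13318 and 14430.0 normalized reads at 0 h and 5639 and 5072 at 16 h (log2 fold change −1.37, SE 0.08, adjusted p = 3.3e-10), although its near-identical paralog SLC2A14 can share reads with it. SCD, the desaturase that makes monounsaturated fatty acids, had 12458 and 14769 normalized reads at 0 h and 3958 and 4964 at 16 h (log2 fold change −1.61, SE 0.11, adjusted p = 4.5e-09). These genes were abundant at 0 h, and their groups did not overlap. SLC7A8, a transporter of neutral amino acids, had 6517 and 6873 normalized reads at 0 h and 2762 and 2891 at 16 h (log2 fold change −1.24, SE 0.09, adjusted p = 2.9e-09). RRBP1, a ribosome-binding protein of the endoplasmic reticulum, had 4557 and 4892 normalized reads at 0 h and 2172 and 2063 at 16 h (log2 fold change −1.16, SE 0.07, adjusted p = 5.0e-10). COL9A3, a chain of type IX collagen, had 5457 and 5770.5 normalized reads at 0 h and 2665 and 2403 at 16 h (log2 fold change −1.15, SE 0.09, adjusted p = 1.2e-08). Falls of 4-fold or more on the log2(normalized reads + 1) scale were seen for 152 of the 632 lowered genes.

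Genes of cholesterol synthesis fell together. Of the 25 tested genes of cholesterol synthesis, uptake and their regulation 16 were lowered and 0 induced, compared with 4.27% lowered over all genes. The list had a median log2 fold change of −1.12 beside −0.05 for all tested genes. For 24 of the 25 genes both 16 h libraries lay below both 0 h libraries (34.7% of all tested genes), and the same 24 passed the adjusted p (15.2%). PMVK was the exception, with 217 and 206 normalized reads at 0 h and 204 and 236 at 16 h (log2 fold change 0.05, adjusted p = 0.84). Genes of this list outside the rule for named genes were chosen for naming with their values known.

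The regulators fell with the enzymes. INSIG1, which retains SREBP in the endoplasmic reticulum and is itself an SREBP target, had 1893 and 1963 normalized reads at 0 h and 326 and 399.8 at 16 h (log2 fold change −2.41, SE 0.15, adjusted p = 1.0e-09). SREBF2, which encodes SREBP-2, had 3189.6 and 3774 normalized reads at 0 h and 1556 and 1878 at 16 h (log2 fold change −1.02, SE 0.10, adjusted p = 2.9e-07). Both genes were lower in each 16 h library. SREBF2 lost its call with median-ratio scaling, edgeR or DESeq2, and also without the 0 h B or 16 h A library (log2 fold change −0.99 to −0.89).

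Enzymes fell at the early and the late stages of the pathway. At its start, HMGCS1, the cytosolic HMG-CoA synthase, had 996 and 912 normalized reads at 0 h and 228 and 354 at 16 h (log2 fold change −1.74, SE 0.15, adjusted p = 4.9e-08). FDFT1, the squalene synthase that commits the pathway to sterols, had 1309 and 1348 normalized reads at 0 h and 547 and 686 at 16 h (log2 fold change −1.12, SE 0.09, adjusted p = 3.7e-08). Between them, the mevalonate kinase MVK had a log2 fold change of −1.68 and the isomerase IDI1 of −1.55. Among the later sterol enzymes, CYP51A1, which removes a methyl group of lanosterol, went from 3078 and 3225 to 1176 and 1142 normalized reads (log2 fold change −1.44, SE 0.09, adjusted p = 4.3e-10). The methylsterol oxidase MSMO1 had a log2 fold change of −1.67, the ketoreductase HSD17B7 of −2.24 and the sterol reductase TM7SF2 of −1.44. The late reductase DHCR7 had 4552 and 4833 normalized reads at 0 h and 1786 and 1807 at 16 h (log2 fold change −1.38, SE 0.10, adjusted p = 4.0e-09). The enzymes SC5D, SQLE, MVD, EBP, LSS, FDPS and NSDHL were lower too, with log2 fold changes between −0.99 and −0.58, and did not reach the fold threshold. FDFT1 lost its call without the 16 h A library (log2 fold change −0.95).

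A 9-base letter string of sterol-responsive promoters, TCACNCCAC, was searched for in the same 250 bases, on both strands. It occurred before 1 of the 18 cholesterol genes with a promoter in the table (5.56%), SREBF2, and before 0.875% of all promoters. The κB consensus occurred before 4 of the 18 (22.2%). Among called genes the string occurred before 1.52% of the induced and 1.54% of the lowered genes with a promoter. The window below is that of SREBF2, the only match among the cholesterol genes, and the capitals mark the string.
SREBF2 promoter, chr22:41832962-41832990, plus strand of GRCh38.p14: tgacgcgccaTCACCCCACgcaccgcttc

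**Figure D3:**
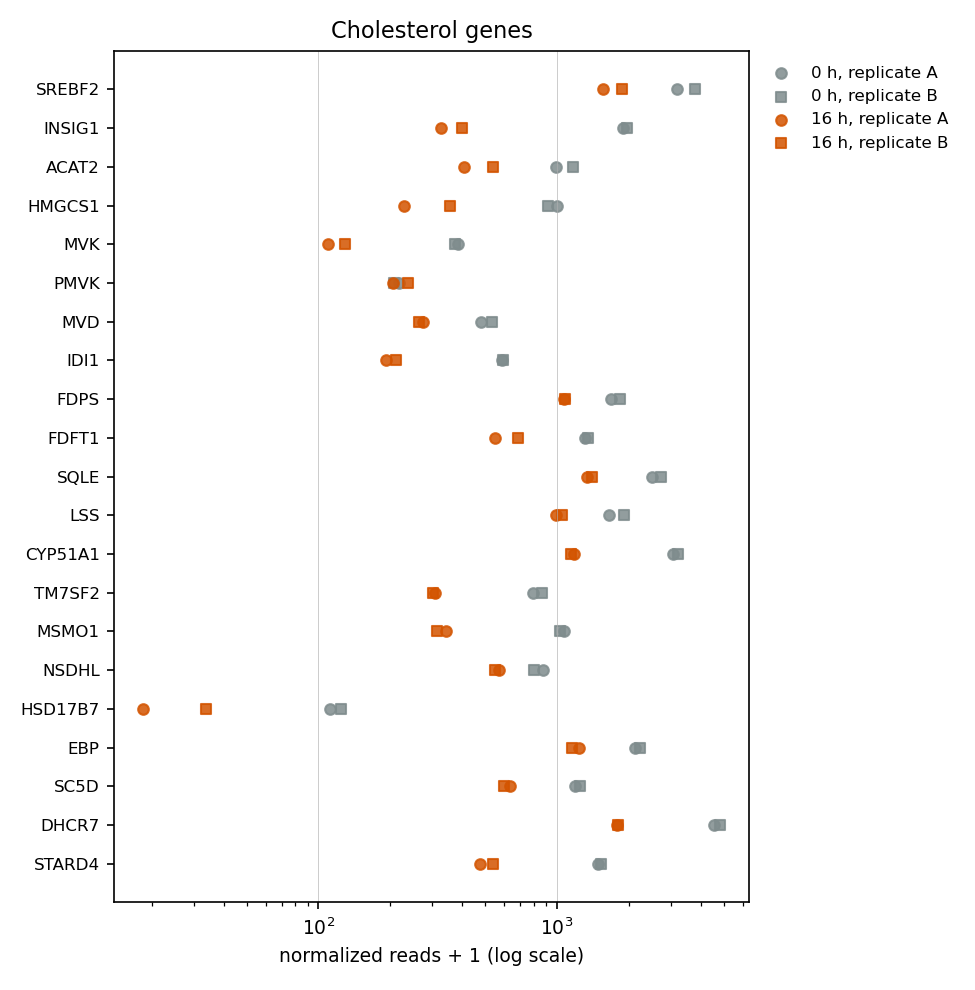
Normalized reads + 1 (log scale) of 21 of the 25 cholesterol genes in each control library, from regulators and early enzymes (top) to late enzymes and STARD4, a sterol carrier (bottom), with circles for replicate A, squares for replicate B, gray for 0 h and orange for 16 h. The 16 h points lie to the left of the 0 h points in 20 genes, and they overlap in PMVK.

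Other lipid genes split, with 4 of 43 lowered, 2 induced and a median of −0.11. ACSS2, which makes acetyl-CoA from acetate and is a known SREBP target, had 1769 and 1944 normalized reads at 0 h and 474 and 499 at 16 h (log2 fold change −1.93, SE 0.09, adjusted p = 2.5e-11). ACOX2, a peroxisomal oxidase of bile acid precursors, had 79.1 and 83.3 normalized reads at 0 h and 23.2 and 11.4 at 16 h (log2 fold change −2.25, SE 0.47, adjusted p = 0.0015). In the other direction, ACSL5, an acyl-CoA synthetase of the intestine, had 39.2 and 27.3 normalized reads at 0 h and 218 and 176 at 16 h (log2 fold change 2.55, SE 0.16, adjusted p = 8.3e-10). The other 37 were not called.

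The listed Wnt target and feedback genes were lowered more often than induced. Of 31 tested genes 8 were lowered (25.8%, beside 4.27% of all genes) and 2 induced (6.45%, beside 2.97%), and the median was −0.64. In all, 26 were lower, of which 22 passed the adjusted p (15.2% of all genes). ASCL2, the transcription factor of intestinal stem cells, had 1922 and 1906 normalized reads at 0 h and 679.6 and 687 at 16 h (log2 fold change −1.48, SE 0.12, adjusted p = 3.8e-08). NKD1, a feedback inhibitor, had 5554 and 5731 normalized reads at 0 h and 2610.2 and 2742 at 16 h (log2 fold change −1.08, SE 0.07, adjusted p = 5.4e-10). DKK4, a secreted Wnt inhibitor, had 429.6 and 432 normalized reads at 0 h and 71.5 and 89.6 at 16 h (log2 fold change −2.41, SE 0.35, adjusted p = 3.5e-05). The groups of these genes were separate in both replicates. WNT11, a ligand of non-canonical signaling, had 66 and 69.7 normalized reads at 0 h and 16.4 and 8.54 at 16 h (log2 fold change −2.42, SE 0.34, adjusted p = 2.8e-05). KREMEN1, the co-receptor of Dickkopf proteins, had a log2 fold change of −1.30 and the receptor TNFRSF19 one of −1.44. CCND1, the cyclin D1 gene, is among the best known targets and had 18250.0 and 18761 normalized reads at 0 h and 11581 and 12051 at 16 h (log2 fold change −0.65, adjusted p = 1.2e-06), which is not a call. Against this direction, the inhibitor DKK1 had 41.4 and 62.1 normalized reads at 0 h and 254 and 239 at 16 h (log2 fold change 2.26, SE 0.17, adjusted p = 7.2e-09). WNT5A, WNT10A and SFRP5 were also called induced, and the list did not hold all of them.

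Genes of epithelial identity were also among those lowered, and 3 of the 7 tested colon epithelial markers were called lowered. In all, 6 were lower and KRT19 was higher, with 7394 and 7114 normalized reads at 0 h and 8437 and 8465 at 16 h. EPCAM was not called, with 5976 and 5687 normalized reads at 0 h and 5552 and 4679 at 16 h. CDH1, which encodes E-cadherin, had 485 and 467 normalized reads at 0 h and 87 and 78.2 at 16 h (log2 fold change −2.51, SE 0.13, adjusted p = 1.1e-10). CDX2, the homeobox factor of intestinal epithelium, had 981 and 965 normalized reads at 0 h and 462 and 467 at 16 h (log2 fold change −1.07, SE 0.08, adjusted p = 1.1e-08). VIL1, the microvillus protein villin, had 545 and 480.2 normalized reads at 0 h and 125 and 112 at 16 h (log2 fold change −2.10, SE 0.51, adjusted p = 0.0047). The 16 h libraries of these 3 lowered markers lay below the 0 h libraries. ESRP1, a splicing factor of epithelial cells, had 648 and 709 normalized reads at 0 h and 277 and 330.1 at 16 h (log2 fold change −1.16, SE 0.12, adjusted p = 4.8e-07). In contrast, the tight-junction gene CLDN1 rose, with a log2 fold change of 1.67, and the gap-junction gene GJB2 had 425 and 429 normalized reads at 0 h and 1495 and 1248 at 16 h (log2 fold change 1.68, SE 0.09, adjusted p = 1.8e-10). Of 27 cadherin, claudin and desmosome genes 5 were induced and CDH1 alone was lowered. The abundant keratin KRT8 had a log2 fold change of −0.32 (adjusted p = 0.0036), and KRT7 rose with 9.43 and 13.6 normalized reads at 0 h and 88 and 83.9 at 16 h (log2 fold change 2.81, SE 0.26, adjusted p = 1.4e-07). The list of genes of the epithelial to mesenchymal transition, which holds epithelial genes too, had 3 lowered genes of 15. They were CDH1 and ESRP1 again and the smooth muscle actin ACTA2, with a log2 fold change of −1.04 (adjusted p = 0.02). The mesenchymal marker VIM had a log2 fold change of 0.71, below the fold threshold. The median of the list was −0.01, which turned positive with median-ratio scaling and in DESeq2. VIL1 lost its call with a pseudocount of 0.1, and also without the 0 h A or 16 h B library (log2 fold change −2.11 to −2.01). ACTA2 lost its call with median-ratio scaling, no filter, a pseudocount of 5 or thinned libraries, and also without the 0 h A, 0 h B or 16 h A library (log2 fold change −1.17 to −0.87).

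Growth factor and receptor genes fell more often than they rose, with 6 of 30 lowered, 2 induced and a median of −0.56. PDGFA, a platelet-derived growth factor chain, had 3604 and 3784 normalized reads at 0 h and 1374 and 1162 at 16 h (log2 fold change −1.55, SE 0.09, adjusted p = 1.4e-10). FGFR2, a fibroblast growth factor receptor of epithelia, had 115 and 138 normalized reads at 0 h and 45.4 and 38.4 at 16 h (log2 fold change −1.57, SE 0.23, adjusted p = 3.4e-05). FGFBP1, which releases fibroblast growth factors from the matrix, had 7.98 and 12.1 normalized reads at 0 h and 0 and 0 at 16 h (at least 2.80-fold lower at 16 h, adjusted p = 0.0013). One of the induced pair was MET, the receptor of hepatocyte growth factor, with 259.8 and 300.0 normalized reads at 0 h and 690.2 and 717 at 16 h (log2 fold change 1.33, SE 0.10, adjusted p = 1.4e-08). In the list of the epidermal growth factor receptor family and its ligands 1 of 9 genes was induced and 0 were lowered, with a median of −0.22. The induced gene was EGFR, the receptor of epidermal growth factor. It rose from 1394 and 1654 to 3277 and 2970.5 normalized reads (log2 fold change 1.04, SE 0.09, adjusted p = 8.2e-08). EGFR lost its call without the 0 h A or 16 h A library (log2 fold change 0.91 to 0.97).

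The Hedgehog list of 11 tested genes was lower in 10 and higher in 1, where 44.0% of all tested genes were higher, and had a median of −0.72. In it 3 genes were lowered (27.3%, beside 4.27% of all genes) and 1 induced (9.09%, beside 2.97%). Downward, 6 passed the adjusted p (15.2% of all genes). SMO, the signal transducer of the pathway, had 91.4 and 118 normalized reads at 0 h and 55.1 and 28.4 at 16 h (log2 fold change −1.37, SE 0.28, adjusted p = 0.0011). GLI1, its effector and target, had 7.98 and 6.06 normalized reads at 0 h and 0.97 and 0 at 16 h (12.8-fold lower at 16 h by pooled reads, counting interval 1.97 to 538, adjusted p = 0.015). The ligand SHH was the exception, with 361 and 415 normalized reads at 0 h and 1070.2 and 788 at 16 h (log2 fold change 1.24, SE 0.26, adjusted p = 0.0012). In the Notch list 3 of 24 genes were lowered (12.5%, beside 4.27% of all genes). They were the transcription factors HES6 and HEY2 and the Notch-modifying enzyme LFNG, with log2 fold changes of −1.60, −1.69 and −1.65. The ligand JAG1 rose, with a log2 fold change of 1.63. Of the 40 genes of the BMP, TGF-β and inhibin list 6 were lowered and 3 induced. ID2, a target of bone morphogenetic proteins, had 1349 and 1248 normalized reads at 0 h and 381 and 459.5 at 16 h (log2 fold change −1.63, SE 0.10, adjusted p = 3.3e-10). BAMBI, a pseudoreceptor, had 2577 and 2369 normalized reads at 0 h and 1159 and 1079.8 at 16 h (log2 fold change −1.14, SE 0.10, adjusted p = 3.8e-08). The ligand BMP2 was one of those that rose, with 2.18 and 0 normalized reads at 0 h and 67.7 and 31.3 at 16 h (36.0-fold higher at 16 h by pooled reads, counting interval 11.9 to 178, adjusted p = 3.3e-06). SMO lost its call without the 16 h B library (log2 fold change −0.90). GLI1 lost its call with a pseudocount of 0.1, DESeq2 or thinned libraries, and also without the 0 h A, 0 h B or 16 h B library (log2 fold change −4.43 to −2.02).

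SEMA6B, a transmembrane guidance protein, had 1024 and 1003 normalized reads at 0 h and 170.1 and 155 at 16 h (log2 fold change −2.63, SE 0.13, adjusted p = 5.2e-11). In the Hippo list 2 of 24 genes were lowered, CTGF and ANKRD1, both targets of the effector YAP. CTGF had 141 and 161 normalized reads at 0 h and 30.9 and 11.4 at 16 h (log2 fold change −2.93, SE 0.32, adjusted p = 1.1e-06). ANKRD1 had 1973 and 2006 normalized reads at 0 h and 605 and 647 at 16 h (log2 fold change −1.67, SE 0.08, adjusted p = 3.5e-11).

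The immediate-early transcription factors moved both ways, with 5 of 26 induced, 5 lowered and a median of 0.05. FOS, a partner of JUN in AP-1, had 552 and 538 normalized reads at 0 h and 169 and 142 at 16 h (log2 fold change −1.81, SE 0.10, adjusted p = 2.3e-10). EGR1, an early growth response factor, had 1946 and 2003 normalized reads at 0 h and 751 and 699 at 16 h (log2 fold change −1.45, SE 0.08, adjusted p = 1.5e-10). EGR3 had a log2 fold change of −1.52 and KLF2 of −1.46. In the same libraries FOSL1, another FOS family member, had 745 and 798 normalized reads at 0 h and 1998 and 1747 at 16 h (log2 fold change 1.28, SE 0.08, adjusted p = 7.9e-10). JUNB, a partner of FOS proteins, had 414 and 419.6 normalized reads at 0 h and 1073 and 1006 at 16 h (log2 fold change 1.32, SE 0.08, adjusted p = 1.1e-09). The ETS family factors parted as well. ETS1 had 1074 and 1044 normalized reads at 0 h and 4139 and 4020.5 at 16 h (log2 fold change 1.94, SE 0.07, adjusted p = 2.7e-13), whereas ETV1 had 109 and 103 normalized reads at 0 h and 26.1 and 42.7 at 16 h (log2 fold change −1.64, SE 0.21, adjusted p = 7.6e-06).

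Genes of amino-acid synthesis and the ATF4 stress response were mostly lower. Of 31 tested genes 5 were lowered (16.1%, beside 4.27% of all genes) and 1 induced (3.23%, beside 2.97%), and the median was −0.49. Downward, 19 passed the adjusted p (15.2% of all genes). PSAT1, an enzyme of serine synthesis, had 1737 and 1522 normalized reads at 0 h and 742 and 802 at 16 h (log2 fold change −1.07, SE 0.09, adjusted p = 2.5e-08). DDIT4, a stress-induced inhibitor of mTORC1, had 411 and 411 normalized reads at 0 h and 121 and 128 at 16 h (log2 fold change −1.72, SE 0.14, adjusted p = 2.8e-08). VLDLR, a lipoprotein receptor, had 410.0 and 449.9 normalized reads at 0 h and 129 and 125 at 16 h (log2 fold change −1.75, SE 0.13, adjusted p = 9.6e-09). The groups were separate in each of these. INHBE, an inhibin subunit, had 20.3 and 22.7 normalized reads at 0 h and 3.87 and 0 at 16 h (log2 fold change −3.35, SE 0.65, adjusted p = 7.0e-04). The glycine transporter SLC6A9 had 298 and 297 normalized reads at 0 h and 86 and 93.9 at 16 h (log2 fold change −1.72, SE 0.16, adjusted p = 1.7e-07). The induced gene was STC2, which encodes stanniocalcin-2, with a log2 fold change of 1.08. PSAT1 lost its call without the 0 h A library (log2 fold change −0.98). STC2 lost its call without the 16 h A library (log2 fold change 0.9968).

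The glycolysis and hypoxia list held 5 lowered genes of 36 and a median of −0.05, which changed sign in DESeq2. ANKRD37, a target of hypoxia-inducible factor, had 144 and 161 normalized reads at 0 h and 38.7 and 27 at 16 h (log2 fold change −2.20, SE 0.22, adjusted p = 5.1e-07). The prolyl hydroxylase EGLN3 had 247 and 282 normalized reads at 0 h and 116 and 112 at 16 h (log2 fold change −1.20, SE 0.17, adjusted p = 2.8e-05). The collagen prolyl hydroxylase P4HA2 rose, with a log2 fold change of 1.61. GAPDH, an abundant glycolytic enzyme, had a log2 fold change of 0.03 and 25807 and 25151 normalized reads at 0 h and 24703 and 27312 at 16 h.

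Among 97 ion channel genes 15 were lowered (15.5%, beside 4.27% of all genes) and 7 induced (7.22%, beside 2.97%). Among 251 solute carriers 20 were lowered (7.97%) and 12 induced (4.78%). The inwardly rectifying potassium channel KCNJ10 had 69.7 and 71.2 normalized reads at 0 h and 12.6 and 4.27 at 16 h (log2 fold change −3.08, SE 0.61, adjusted p = 8.9e-04). KCNJ8, a subunit of potassium channels that sense ATP, had 115 and 95.4 normalized reads at 0 h and 23.2 and 32.7 at 16 h (log2 fold change −1.89, SE 0.29, adjusted p = 6.1e-05). The bicarbonate transporter SLC4A8 had 537 and 567 normalized reads at 0 h and 143 and 154 at 16 h (log2 fold change −1.89, SE 0.13, adjusted p = 3.1e-09). The fall of each was seen in both replicates.

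Of 35 genes of drug and steroid metabolism 6 were lowered and 0 induced. ABCB1, the efflux pump P-glycoprotein, had 653 and 774 normalized reads at 0 h and 285 and 240.4 at 16 h (log2 fold change −1.44, SE 0.14, adjusted p = 3.8e-07). Its neighbour ABCB4, a phospholipid transporter, had 101 and 133 normalized reads at 0 h and 27.1 and 49.8 at 16 h (log2 fold change −1.63, SE 0.28, adjusted p = 2.5e-04). The UGT1A genes, which add glucuronic acid to bilirubin and drugs, share their last exons. Of them 6 were listed with identical reads, and each was counted among the 632 lowered genes. With every set of identical reads counted once, 626 genes were lowered. UGT1A1 had 416 and 373 normalized reads at 0 h and 222 and 168 at 16 h (log2 fold change −1.02, SE 0.20, adjusted p = 8.4e-04). QPRT, an enzyme of NAD synthesis from tryptophan, had 90.0 and 114 normalized reads at 0 h and 13.5 and 19.9 at 16 h (log2 fold change −2.55, SE 0.21, adjusted p = 2.7e-08). UGT1A1 lost its call with median-ratio scaling, edgeR, DESeq2 or thinned libraries, and also without the 0 h A or 16 h B library (log2 fold change −0.9983 to −0.82).

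Of 32 nuclear receptor, retinoid and vitamin D genes 4 were lowered and 1 was induced. CRABP2, which carries retinoic acid to its receptor, had 3061 and 2615 normalized reads at 0 h and 1377 and 1296 at 16 h (log2 fold change −1.08, SE 0.08, adjusted p = 6.3e-09). CYP26A1, which degrades retinoic acid, had 47.9 and 51.5 normalized reads at 0 h and 7.73 and 18.5 at 16 h (log2 fold change −1.96, SE 0.47, adjusted p = 0.004). Unlike these, CYP24A1, which degrades vitamin D, rose with 50.1 and 42.4 normalized reads at 0 h and 189 and 222 at 16 h (log2 fold change 2.13, SE 0.25, adjusted p = 2.7e-06). Of 19 clock genes 4 were lowered and 0 induced. DBP, an output factor of the clock, had 82.7 and 126 normalized reads at 0 h and 26.1 and 38.4 at 16 h (log2 fold change −1.66, SE 0.29, adjusted p = 2.7e-04). PER3, a clock component, had replicates that differed and groups that overlapped, with 76.9 and 177 normalized reads at 0 h and 28 and 86.8 at 16 h (log2 fold change −1.22, SE 0.38, adjusted p = 0.023). CRABP2 lost its call without the 0 h A library (log2 fold change −0.97). CYP26A1 lost its call without the 16 h A library (log2 fold change −1.38). PER3 lost its call with no filter, DESeq2 or thinned libraries, and also without the 0 h B or 16 h A library (log2 fold change −1.22 to −0.43).

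Of the lowered genes 87 had 3 reads or fewer in both 16 h libraries, and 42 of these had a mean of 10 or more normalized reads at 0 h. NAALAD2, a peptidase, had 13.1 and 15.2 normalized reads at 0 h and 0 and 0 at 16 h (at least 3.94-fold lower at 16 h, adjusted p = 1.7e-04). SIGLEC6, a sialic acid receptor, had 21.8 and 15.2 normalized reads at 0 h and 0 and 0 at 16 h (at least 5.15-fold lower at 16 h, adjusted p = 2.6e-04). The water channel AQP5 had 26.1 and 22.7 normalized reads at 0 h and 1.93 and 2.85 at 16 h (10.9-fold lower at 16 h by pooled reads, counting interval 3.99 to 41.4, adjusted p = 0.0017). At this depth a complete loss could not be told from a level of 3 reads or fewer. AQP5 lost its call with a pseudocount of 0.1 (log2 fold change −3.32).

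Several large functions held no called gene. All 53 tested genes of oxidative phosphorylation lay between −0.37 and 0.26 on the log2 scale, and their median of −0.02 turned positive under the other scalings. The 48 genes of DNA replication had a median of −0.23 and the 40 genes of mitosis −0.42. They were lower in 41 and 36 genes, of which 22 and 32 passed the adjusted p (15.2% of all genes). MKI67, the proliferation marker Ki-67, had 9594 and 11920.0 normalized reads at 0 h and 7897 and 8846 at 16 h (log2 fold change −0.36, adjusted p = 0.006). In the opposite direction, 38 of 39 ribosome biogenesis genes were higher, with a median of 0.27, and 23 passed the adjusted p (11.1% of all genes). NCL, which encodes nucleolin, had 11175 and 11703 normalized reads at 0 h and 13413 and 15255 at 16 h (log2 fold change 0.32, adjusted p = 0.0061). The medians of replication, mitosis and ribosome biogenesis kept their signs in the alternatives run. Of 24 listed genes that wild-type p53 activates, 1 was induced (4.17%, beside 2.97% of all genes) and 1 lowered (4.17%, beside 4.27%). The list is a selection, and PERP, described above as induced, was not in it. CDKN1A, the cell cycle inhibitor p21, had 959 and 944 normalized reads at 0 h and 1136 and 1030.0 at 16 h (log2 fold change 0.18, adjusted p = 0.1).

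**Figure D4:**
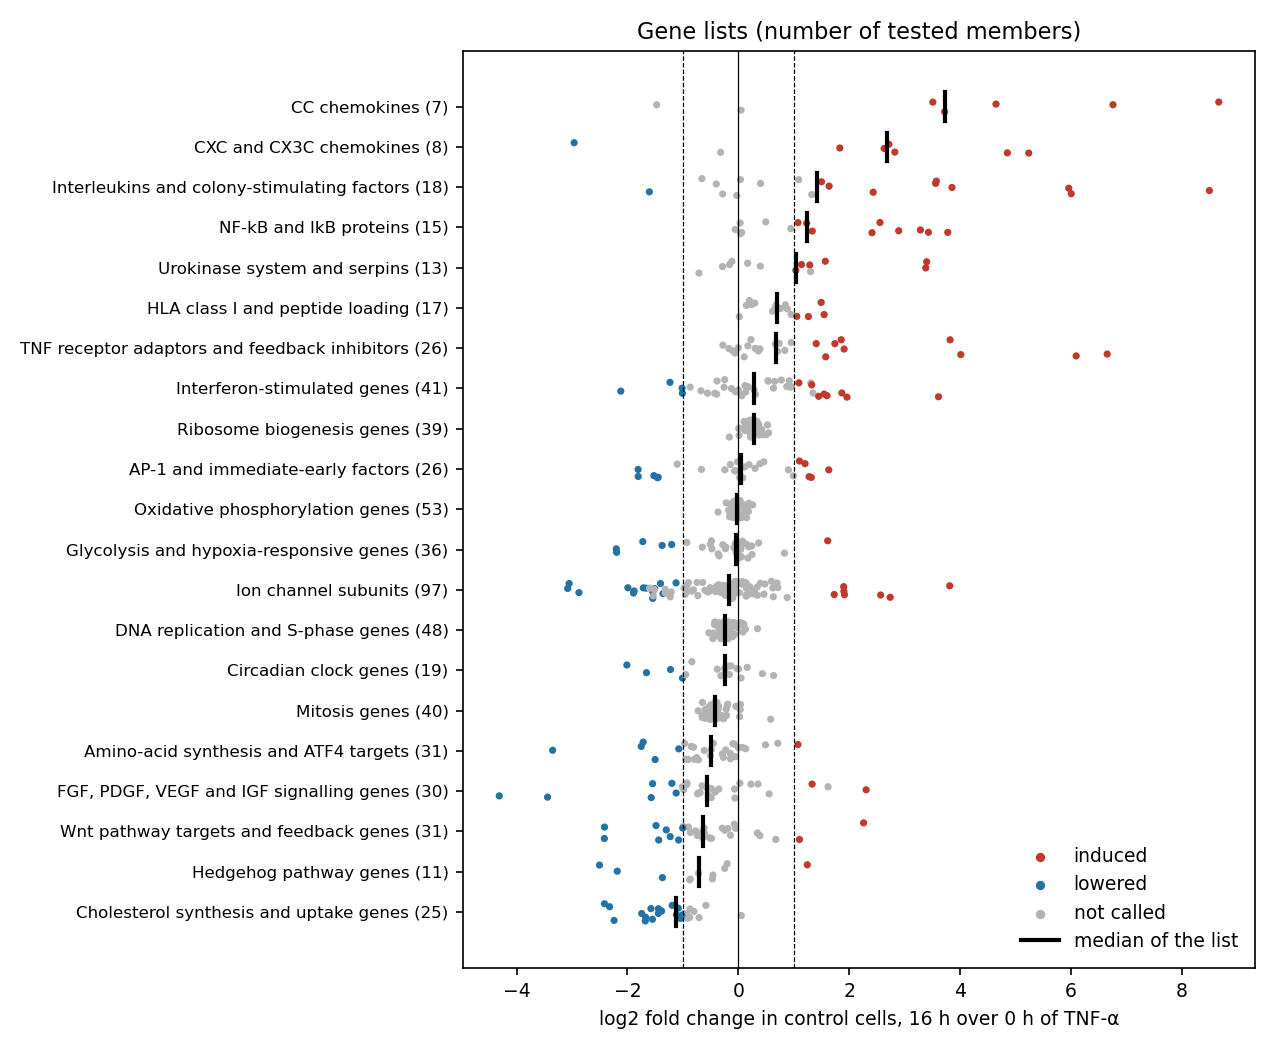
Log2 fold change (16 h over 0 h of TNF-α, horizontal axis) of each tested member of 21 gene lists, with the number of members in brackets, red for induced, blue for lowered and gray for genes not called, and a bar at the median. The medians run from 3.72 for CC chemokines to −1.12 for cholesterol genes, and the dashed lines mark the 2-fold threshold.

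Many called genes were next to each other among the tested genes along the chromosomes. Runs of neighbours called in the same direction held 114 of the 440 induced genes (25.9%) in 47 runs. For lowered genes they held 138 of 632 (21.8%) in 59 runs. An induced run was the chemokine cluster CXCL8, CXCL1, CXCL5, CXCL3 and CXCL2 on chromosome 4, 74606223 to 74964997 of hg19, the build of the file's coordinates. LTA, TNF, LTB and LST1 formed another on chromosome 6, 31539876 to 31556686. Among lowered genes there were runs over the UGT1A locus and over 5 genes of the kallikrein cluster, from KLK1 to KLK7 on chromosome 19, 51322402 to 51487320. Shared exons and readthrough transcripts can make such runs, as in UGT1A, and no test of the clustering was made. CXCL5 lost its call with a pseudocount of 0.1, and also without the 0 h A or 16 h A library (log2 fold change 2.19 to 3.37). CXCL3 lost its call with a pseudocount of 0.1 or DESeq2, and also without the 0 h A, 16 h A or 16 h B library (log2 fold change 1.14 to 2.03). LST1 lost its call with a pseudocount of 5, the shLacZ libraries alone, DESeq2 or thinned libraries, and also without the 0 h A, 0 h B or 16 h A library (log2 fold change 0.88 to 4.56).

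At the fold threshold the calls separate genes with nearly the same values. Just inside it lay FZD2, a Wnt receptor, with 134 and 103 normalized reads at 0 h and 65.7 and 51.2 at 16 h. The actin-binding protein CORO2A was inside too, with 146 and 133 normalized reads at 0 h and 71.5 and 66.9 at 16 h. LCK, a kinase just outside, had 98.7 and 108 normalized reads at 0 h and 41.6 and 62.6 at 16 h. On the induced side, the TNF family receptor TNFRSF14 was inside with 159 and 161 normalized reads at 0 h and 341 and 302 at 16 h, as was SCLY, a selenocysteine lyase. JUN, an AP-1 subunit, was outside with 374 and 371 normalized reads at 0 h and 868 and 636 at 16 h and a log2 fold change of 0.99. FZD2 lost its call with median-ratio scaling, a pseudocount of 5, edgeR, DESeq2 or thinned libraries, and also without the 0 h A or 16 h B library (log2 fold change −0.99 to −0.82). CORO2A lost its call with median-ratio scaling, a pseudocount of 5, edgeR, DESeq2 or thinned libraries, and also without the 0 h A or 16 h B library (log2 fold change −0.98 to −0.87). TNFRSF14 lost its call with a pseudocount of 5, and also without the 0 h A or 16 h A library (log2 fold change 0.91 to 0.99). SCLY lost its call with a pseudocount of 5, and also without the 0 h B or 16 h A library (log2 fold change 0.92 to 0.99).

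The 4 libraries of the mutp53-depleted line gave no value to the control fold changes, so they show how the same genes moved in other cells. There TNF-α induced 275 genes (1.86%) and lowered 666 genes (4.5%). Of the 632 genes lowered in control cells, 610 were lower at 16 h in mutp53-depleted cells as well (96.5%, compared with 57.8% of all tested genes). A fall of at least 2-fold was seen for 383 of them (60.6%, compared with 6.63% of all tested genes), and 340 were called lowered. These 340 are 53.8% of the genes lowered in control cells and 51.1% of those lowered in mutp53-depleted cells. Of the 440 induced genes 236 rose by at least 2-fold there (53.6%, compared with 2.93%). The median of the lowered genes was −1.16 in mutp53-depleted cells beside −1.51 in control cells, where the choice of the genes favours a larger value.

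The difference between the lines was tested as the interaction contrast of the same fit, which passed an adjusted p of 0.05 for 424 of all genes (2.86%). It did so for 33 of the 632 lowered genes (5.22%), with a smaller fall in mutp53-depleted cells for 25 and a larger one for 8. Among the 440 induced genes it passed for 124 (28.2%), with a smaller rise for 120. Since the genes were chosen on the control contrast, which enters the interaction, the counts are given as a description.

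Among the lowered genes, CTGF had 79.1 and 79.5 normalized reads at 0 h and 41.9 and 53.1 at 16 h in mutp53-depleted cells (log2 fold change −0.74, interaction adjusted p = 0.0091 from limma). EDN3 had 0 reads in all 4 libraries of mutp53-depleted cells, so that no fall could be measured there. EGR1 had 1084 and 950.2 normalized reads at 0 h and 671 and 661 at 16 h in mutp53-depleted cells (log2 fold change −0.61, interaction adjusted p = 2.5e-04 from limma). CTGF and EGR1 thus fell less there than in control cells. EDAR went the other way, with a log2 fold change of −2.19 in mutp53-depleted beside −1.06 in control cells (interaction adjusted p = 0.0025 from limma).

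Of the other lowered genes described above, ANKRD1, RRBP1, SLC2A3, CD46, CYP51A1 and DHCR7 also passed the interaction test with smaller falls, and the rest did not pass. The cholesterol list had a median of −0.91 in mutp53-depleted cells, where 8 of its 25 genes were called lowered. INSIG1 had a log2 fold change of −1.80 there. CDH1 had −2.15, ASCL2 −2.09, DKK4 −2.16, SEMA6B −2.67 and MYH7B −4.0 as the log2 fold change in mutp53-depleted cells. The interaction adjusted p of these 6 genes lay between 0.072 and 0.95 from limma, which does not show that the lines respond alike.

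**Figure D5:**
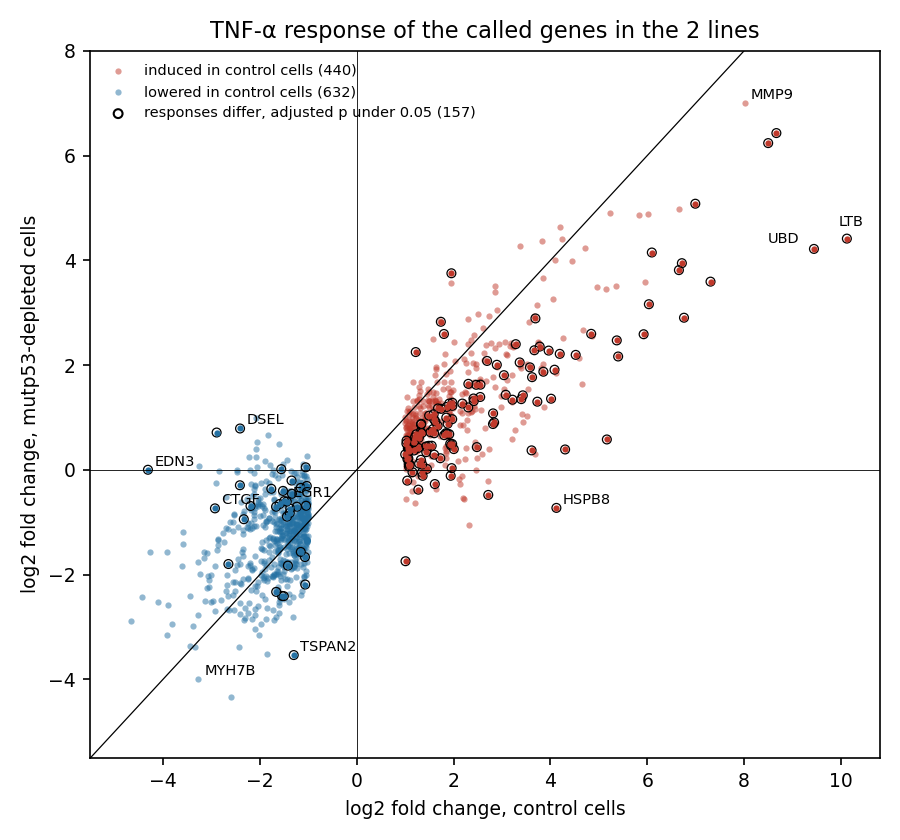
Log2 fold change (16 h over 0 h) in mutp53-depleted cells (vertical axis) against control cells (horizontal axis) for the 440 induced and 632 lowered genes of control cells, with black rings around the 157 genes whose responses differed at an interaction adjusted p under 0.05 and a diagonal of equal response. Most lowered genes lie below 0 in both lines, and the ringed genes lie mostly among the induced genes under the diagonal.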

How the data were processed

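Poly(A) mRNA was sequenced as stranded, 50-base single-end reads, in 2 biological replicates of each of 4 groups. The authors aligned the reads with STAR, counted those on RefSeq exons with HOMER and deposited a signal per gene, in which the whole reads of a library are multiplied by 1 factor that gives all libraries the same total. The methods name hg38 and the file's header and coordinates name hg19. Whole reads were recovered for 100% of the values of every library, within 0.1 reads. The deposited table also holds the authors' fold changes and p-values from edgeR, which were not used, and the other assays of the series were not analysed here.

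The main test was limma 3.58.1 (R 4.3.3) on log2(value + 1) of all 8 libraries, with a mean of each group and a mean-intensity trend of the variance, over 14800 genes. Genes were called at an adjusted p under 0.05 and at least 2-fold. In data simulated for the control comparison, 185 of 200 changed genes were recovered with 6 false calls over 14800 genes. Whether these figures hold for the genes called in the sequenced libraries was not tested. The p-values measure the spread between 2 replicates per group.

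The members and gene lists were chosen with earlier results of these data known. Named genes were the 15 largest fold changes per direction with a mean of at least 20 in the higher group, the 10 largest changes in normalized reads, up to 6 called members of each of 71 lists per direction, a few genes of the study's account, the nearest genes to the fold threshold, the 5 largest differences between lines per direction, and lowered genes with 3 reads or fewer at 16 h. Only part of them is printed, a few genes are not reported here, and others named are said to be chosen with their values known. Lists carry no test. Promoter sequences matched 11529 of the 14800 genes, by gene ID or else by symbol, and the windows of lowered genes that the rule also gave are not printed. Alternatives were median-ratio scaling, other filters and pseudocounts, the control libraries alone, a replicate block, edgeR 4.0.16, DESeq2 1.42.0, thinned reads and leaving out each control library.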

Additional observations from a re-analysis of the deposited data

Results flagged for a closer look

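Genes named here whose response to TNF-α differed between the lines by limma's interaction test number 45, at an adjusted p between 2.1e-10 (TNFAIP2) and 0.047 (GJB2). The value given for each is its log2 fold change in mutp53-depleted cells minus that in control cells. Most were named for their response in control cells, so a smaller response in mutp53-depleted cells is favoured. For LTB, UBD, CCL7 and TNF, with 0 h reads near 0, the size also depends on the pseudocount.

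The 34 that were induced in control cells all had a smaller rise in mutp53-depleted cells. A smaller rise is not always a lower level at 16 h, since the 0 h levels of the lines could differ. BIRC3 went from a mean of 182 to 2566 normalized reads in mutp53-depleted cells, beside 12.3 to 1270 in control cells. CCL2 went from 4.05 to 440 there, beside 3.33 to 1764.5. Among the NF-κB subunits and inhibitors, the difference was −0.46 for NFKB1, −0.93 for NFKB2, −0.89 for RELB and −1.43 for NFKBIA. Among ligands, receptors and feedback genes of TNF-α signaling, the difference was −2.77 for TNF, −5.71 for LTB, −1.98 for TNFRSF6B, −2.84 for BIRC3, −2.66 for TNFAIP2, −1.95 for TNFAIP3, −0.64 for TNIP1 and −0.58 for SQSTM1. Among cytokines and chemokines, the difference was −2.24 for CCL2, −3.85 for CCL7 and −2.26 for IL32. Among complement, acute-phase and protease genes, the difference was −1.91 for C3, −1.85 for SAA1 and −3.71 for CTSS. Among antigen presentation and interferon targets, the difference was −5.22 for UBD, −0.46 for TAPBP, −1.23 for CD74, −0.53 for IRF1, −1.18 for IFIH1 and −1.31 for APOL6. Among surface, junction and keratin genes, the difference was −0.80 for ICAM1, −1.11 for PERP, −0.84 for SDC4, −0.83 for CLDN1, −0.50 for GJB2 and −1.74 for KRT7. Among metabolic and cell-death genes, the difference was −1.16 for ACSL5, −0.71 for SCLY, −0.70 for SOD2 and −0.80 for BID.

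Of the 10 that were lowered in control cells, 9 had a smaller or no fall in mutp53-depleted cells. The difference was 2.19 for CTGF, 4.31 for EDN3, which had 0 reads in every mutp53-depleted library, 0.84 for EGR1, 0.96 for ANKRD1, 0.81 for RRBP1, 0.63 for SLC2A3, 0.53 for CD46, 0.55 for CYP51A1 and 0.56 for DHCR7. EDAR, the ectodysplasin receptor, fell further there, with −1.13. REL was not called in control cells and had a difference of −0.83.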

How the results depend on the processing

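The main counts were 440 induced and 632 lowered genes. DESeq2 on the recovered reads called 405 and 400, of which 372 and 398 were called in the main test, so that the share of induced genes among the calls went from 41.0% to 50.3%. The cause was not tested. Under the other alternatives that kept all control libraries the counts were 373 to 479 and 523 to 662. Leaving out a control library, with the remaining one assumed to vary like the other groups, gave 387 to 434 induced and 447 to 598 lowered genes, the fewest lowered without the 0 h B library. Of 172 called genes named here, 140 were called under all 15 alternatives, and no called gene named here changed direction. A median changed sign in 19 of 71 lists, among them oxidative phosphorylation and the list of the epithelial to mesenchymal transition. The count of lowered genes with at least a 2-fold fall in mutp53-depleted cells was 383 and went from 259 to 371 under the alternatives, and the count of differences between lines was 157 and went from 116 to 189. A filter over the control libraries alone, chosen after seeing the data, gave 450 and 637.

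No source used here says that the letters A and B mark a shared batch, and they were not taken to pair the samples. The deviations of same-letter libraries from their group means correlated with r between −0.08 and 0.22, and 0.12 for the control pair, over 11023 genes. With the letter as a replicate block, 450 genes were induced and 646 lowered.

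Depth limits the lowest values. Neither library exceeded 3 reads for 79 induced genes at 0 h and for 87 lowered genes at 16 h, so the size of their change is poorly known.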

Other observations

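Of 37 collagens, laminins and integrins 5 were induced (13.5%, beside 2.97% of all genes) and 2 lowered (5.41%, beside 4.27%), with a median of 0.05. ITGA2, a subunit of the collagen receptor, had 533 and 603 normalized reads at 0 h and 1754 and 1884 at 16 h (log2 fold change 1.68, SE 0.08, adjusted p = 2.4e-11). The laminin chain LAMB3 had a log2 fold change of 1.21. ITGA7, a laminin receptor subunit best known from muscle, fell from 803 and 1097 to 361 and 381 normalized reads (log2 fold change −1.34, SE 0.13, adjusted p = 2.0e-07). The groups of all these genes were separate. Of 17 Eph receptors and ephrins 3 were lowered and 0 induced. EPHA1 had a log2 fold change of −1.17, EPHB3 of −1.23 and the ligand EFNA3 of −1.21. EPHA1 lost its call without the 16 h A library (log2 fold change −0.99). EPHB3 lost its call without the 16 h B library (log2 fold change −0.98). EFNA3 lost its call without the 0 h B or 16 h A library (log2 fold change −1.21 to −1.02).

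Of 30 interleukin and interferon receptors 5 were induced (16.7%, beside 2.97% of all genes) and 1 was lowered (3.33%, beside 4.27%). IL18R1, a chain of the interleukin-18 receptor, had 2.18 and 1.51 normalized reads at 0 h and 99.6 and 76.8 at 16 h (46.0-fold higher at 16 h by pooled reads, counting interval 17.6 to 171, adjusted p = 4.2e-08). IFNGR1, the ligand-binding chain of the interferon-γ receptor, rose from 216 and 253 to 665 and 489 normalized reads (log2 fold change 1.28, SE 0.16, adjusted p = 5.9e-06). Of 23 BCL2 family and caspase genes 2 were induced (8.70%, beside 2.97%) and 1 lowered (4.35%, beside 4.27%). BID and PMAIP1, both promoters of apoptosis, had log2 fold changes of 1.52 and 1.24, whereas BMF, of the same class, had one of −1.10. SOD2, the mitochondrial superoxide dismutase, was the only induced gene of 25 antioxidant genes, and it rose from 241 and 276 to 728 and 872 normalized reads (log2 fold change 1.62, SE 0.11, adjusted p = 1.6e-09). Of 19 genes of tryptophan, NAD and prostaglandin metabolism 4 were induced. PTGES, a prostaglandin E synthase, had a log2 fold change of 1.03. KAT2B, a histone acetyltransferase, fell from 74 and 56 to 17.4 and 27 normalized reads (log2 fold change −1.53, SE 0.25, adjusted p = 1.6e-04). BMF lost its call without the 0 h A library (log2 fold change −0.9967). PTGES lost its call with edgeR, and also without the 0 h B library (log2 fold change 0.75 to 0.98).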
